A study of Saccharomyces cerevisiae with 72 samples.

Results

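The allantoin and urea use genes are the 10 genes *DAL1*, *DAL2*, *DAL3*, *DAL4*, *DAL5*, *DAL7*, *DAL80*, *DAL81*, *DCG1* and *DUR1,2* of *Saccharomyces cerevisiae*, chosen by their identifiers among the 6660 genes of the deposited table. All 10 had a value in each of the 36 conditions, as did 6496 genes of the table. RNA-seq was made from diploid *kar4*Δ/Δ cells and from wild type diploids of the S288c background at 0, 2, 4, 6, 8 and 12 h in sporulation medium. Each genotype was followed with the endogenous promoters of *IME1* and *RIM4*, with *IME1* under the estradiol-inducible Pzev promoter (Pzev-*IME1*), and with both genes under it (Pzev-*IME1* Pzev-*RIM4*), with 2 biological replicates of each condition and 72 samples in all. Ime1p is the transcription factor that starts the meiotic programme, Rim4p is an RNA-binding protein of meiosis, and Kar4p is a protein needed for meiosis that is also known from the mating response. Every culture was grown in acetate medium before it was moved to potassium acetate supplemented with histidine, uracil and leucine, and the Pzev strains received β-estradiol at the transfer. The *kar4*Δ/Δ strains listed for the study had *KAR4* replaced with a selectable marker. The listed Pzev strains, as well as some without a Pzev promoter, carried the artificial activator Z3EV on the *ACT1* promoter. Its copy number differed between strains. Which listed strains were sequenced is not given in the sources used here, so the part of the markers and of Z3EV copy number in the values was not tested.

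Allantoin is a nitrogen-rich product of purine breakdown that yeast can take up, store and use when better nitrogen sources are lacking. Its ring is opened and cut in successive steps to urea and glyoxylate, and urea is then split to ammonia and carbon dioxide. The genes are held down on good nitrogen sources and are turned on through GATA factors, proteins that bind GATAAG letters: Gln3p and Gat1p activate, while Dal80p and Gzf3p repress. Dal81p and Dal82p add a response to the inducer allophanate, an intermediate of urea breakdown.

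Of the 10 genes, 6 stand next to each other on chromosome IX, in the order *DAL1* (YIR027C, positions 406260 to 407642 of the R64 annotation, the assembly also called sacCer3), *DAL4* (YIR028W, 408468 to 410375), *DAL2* (YIR029W, 410807 to 411838), *DCG1* (YIR030C, 412036 to 412770), *DAL7* (YIR031C, 413015 to 414679) and *DAL3* (YIR032C, 415030 to 415617). *DAL81* (YIR023W, 399777 to 402689) is on the same chromosome with 3 annotated genes between it and *DAL1*. The others are *DAL5* (YJR152W, chromosome X, 719666 to 721297), *DAL80* (YKR034W, chromosome XI, 506898 to 507707) and *DUR1,2* (YBR208C, chromosome II, 636703 to 642210). *DAL1* and *DAL4* are divergent neighbours separated by 825 bases.

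The upstream sequences of 4 members are printed because the results turn on these genes: *DAL3* and *DAL80* had the lowest and the highest change over 12 h in the wild type strain with both Pzev promoters, and *DAL1* and *DAL4*, which share an upstream region, parted there. Each is the stretch from 400 to 101 bases before the start codon, read 5′ to 3′ on the gene's own strand from the R64 genome of RefSeq, with every match to GATAAG, on either strand (CTTATC on the reverse), in capitals. The *DAL3* window is chrIX:415718-416017 on the minus strand, *DAL1* chrIX:407743-408042 on the minus strand, *DAL4* chrIX:408068-408367 on the plus strand and *DAL80* chrXI:506498-506797 on the plus strand.
DAL3: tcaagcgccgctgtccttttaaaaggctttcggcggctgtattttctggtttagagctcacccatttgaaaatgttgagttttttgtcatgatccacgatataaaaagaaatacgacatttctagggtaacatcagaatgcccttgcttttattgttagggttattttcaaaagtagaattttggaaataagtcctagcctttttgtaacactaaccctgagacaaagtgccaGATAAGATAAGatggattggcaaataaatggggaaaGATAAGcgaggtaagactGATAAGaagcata
DAL80: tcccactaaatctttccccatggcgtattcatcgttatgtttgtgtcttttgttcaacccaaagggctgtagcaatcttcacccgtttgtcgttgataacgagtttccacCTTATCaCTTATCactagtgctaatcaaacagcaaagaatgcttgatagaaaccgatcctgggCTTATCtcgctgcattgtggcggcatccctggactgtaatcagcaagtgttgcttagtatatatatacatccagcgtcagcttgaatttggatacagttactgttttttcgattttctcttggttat
DAL1: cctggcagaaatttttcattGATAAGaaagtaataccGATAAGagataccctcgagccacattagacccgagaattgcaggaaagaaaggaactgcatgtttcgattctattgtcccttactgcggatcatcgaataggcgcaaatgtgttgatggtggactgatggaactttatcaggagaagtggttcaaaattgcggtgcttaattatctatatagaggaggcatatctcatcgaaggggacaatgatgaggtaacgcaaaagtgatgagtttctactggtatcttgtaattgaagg
DAL4: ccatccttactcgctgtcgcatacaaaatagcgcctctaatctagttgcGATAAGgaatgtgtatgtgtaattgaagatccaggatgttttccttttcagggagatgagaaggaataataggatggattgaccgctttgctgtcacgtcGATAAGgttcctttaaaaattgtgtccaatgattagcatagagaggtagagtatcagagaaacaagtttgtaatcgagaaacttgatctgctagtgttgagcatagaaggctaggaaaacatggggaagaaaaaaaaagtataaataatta
The *DAL3* window holds 4 matches, of which the first pair shares a G, and the *DAL80* window holds 3, all on the reverse strand. *DAL1* and *DAL4* hold 2 each.

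GATAAG was found in this window in 9 of the 10 genes, against 13.9% of 6001 annotated genes, and at least 2 matches in 8 of the 10, against 1.47%. *DAL5* and *DAL7* had 3 matches, *DAL2* and *DCG1* had 2, *DUR1,2* had 1 and *DAL81*, the activator gene, had none. The windows of *DCG1* and *DAL7* run into the coding sequence of the next gene of the cluster. AATTGCG, letters from the element through which allophanate acts, was in the windows of *DAL1* and *DAL7*, 2 of 10 against 3.55% of all genes. GCCGCC, letters from the URS1 element of early meiotic genes, was in those of *DAL3* and *DAL80*, 2 of 10 against 6.12%. Both motifs were searched on both strands, neither contains or is contained in GATAAG, and a match is a description of the sequence only.

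The values are the authors' log2 fold changes, with the 0 h sample of wild type with endogenous promoters as zero, each already combined over its 2 replicates. The files used here give no replicate values, counts or errors, so depth and replicate spread are unknown, no difference between conditions was tested, and sizes of at least 2-fold (1 on the log2 scale) are counted instead. A difference between 2 conditions is the difference of their log2 fold changes. Each value is an average over a culture, in which fewer cells of a kind and less RNA per cell cannot be told apart. As a check of the labels, *KAR4* minus its wild type value was, in *kar4*Δ/Δ, -4.94 to -3.97 (log2) from 2 to 12 h with endogenous promoters, -5.49 to -4.06 at all times with Pzev-*IME1* and -8.68 to -6.46 with both Pzev promoters. The exception, at -0.55, was the *kar4*Δ/Δ column for 0 h with endogenous promoters, so no direction between genotypes is read at that point.

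With endogenous promoters, most of the 10 genes were at a higher level at every time in sporulation medium than at 0 h, in both genotypes. Between 0 and 12 h, a height of at least 2-fold was gained by 8 of 10 in *kar4*Δ/Δ, where 5.22% of all genes were, and 7 of 10 in wild type, where 6.33% of all genes were. The median of the 10 at 12 h minus 0 h was 1.22 in *kar4*Δ/Δ and 1.45 in wild type, against medians over all genes of 0.01 and -0.01. The *kar4*Δ/Δ 0 h column used here is the one with *KAR4* at -0.55, and with the wild type 0 h sample as zero instead 7 of 10 were at least 2-fold higher in *kar4*Δ/Δ at 12 h, where 3.88% of all genes were, with a median of 1.56. Between 8 and 12 h none of the 10 differed by 2-fold in either genotype, and few genes of the table did. Of all genes 0.03% were higher and 0.03% lower in *kar4*Δ/Δ, and 0.71% higher and 0.72% lower in wild type.

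The enzymes of the pathway are given first, as log2 fold changes at 0, 2, 4, 6, 8 and 12 h in *kar4*Δ/Δ and, since wild type at 0 h is the zero of the scale, at 2, 4, 6, 8 and 12 h in wild type. *DAL1*, which encodes allantoinase, the ring-opening enzyme, had -0.14, 1.11, 1.01, 0.94, 0.80 and 0.35 in *kar4*Δ/Δ and 0.42, 0.30, 0.42, 0.48 and 0.25 in wild type. *DAL2*, for allantoicase, had 0.32, 1.72, 1.55, 1.60, 1.60 and 1.53 in *kar4*Δ/Δ and 1.03, 0.81, 0.95, 1.50 and 1.52 in wild type. *DAL1* thus stood below 2-fold at every wild type time, while *DAL2* passed it in wild type at 2, 8 and 12 h. *DAL3*, for ureidoglycolate lyase, which releases urea, had 0.20, 2.81, 3.11, 3.27, 3.27 and 2.80 in *kar4*Δ/Δ and 2.75, 2.56, 2.11, 2.99 and 2.82 in wild type. *DUR1,2*, for the urea amidolyase that splits urea, had -0.66, 1.82, 2.08, 2.36, 2.55 and 2.53 in *kar4*Δ/Δ and 2.44, 1.72, 1.70, 2.75 and 3.03 in wild type. These are the 2 members that stood highest at 2 h in wild type, and *DUR1,2* was the member furthest below wild type in *kar4*Δ/Δ at 2, 8 and 12 h, by -0.62, -0.20 and -0.50. *DAL7*, for a malate synthase that uses glyoxylate, had 0.17, 1.52, 1.23, 1.43, 1.46 and 1.28 in *kar4*Δ/Δ and 1.19, 0.88, 0.79, 1.38 and 1.38 in wild type.

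Both transporter genes were higher in *kar4*Δ/Δ from 2 h on. *DAL4*, the allantoin permease gene, had 0.39, 1.90, 1.92, 1.85, 1.94 and 1.60 in *kar4*Δ/Δ and 1.20, 1.24, 1.59, 1.49 and 1.29 in wild type. *DAL5*, the allantoate permease gene, had -0.30, 0.71, 1.36, 0.99, 1.07 and 0.92 in *kar4*Δ/Δ and 0.56, 0.54, 0.53, 0.76 and 0.72 in wild type, and passed 2-fold at no wild type time. Among the regulators, *DAL80*, the gene of the GATA repressor, had 0.12, 2.41, 2.997, 3.46, 3.78 and 3.86 in *kar4*Δ/Δ and 2.43, 2.72, 2.71, 3.75 and 4.01 in wild type, the largest changes of the 10 at 12 h in both. *DAL81* had 0.19, 0.27, 0.43, 0.28, 0.34 and 0.29 in *kar4*Δ/Δ and 0.32, 0.06, 0.06, 0.11 and 0.09 in wild type, so that the activator gene stayed within 0.43 of the starting level throughout. *DCG1*, a gene of unknown function inside the cluster, had 0.13, 2.08, 2.02, 2.04, 1.98 and 1.60 in *kar4*Δ/Δ and 1.45, 1.14, 1.09, 1.45 and 1.54 in wild type.

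**Figure D1:**
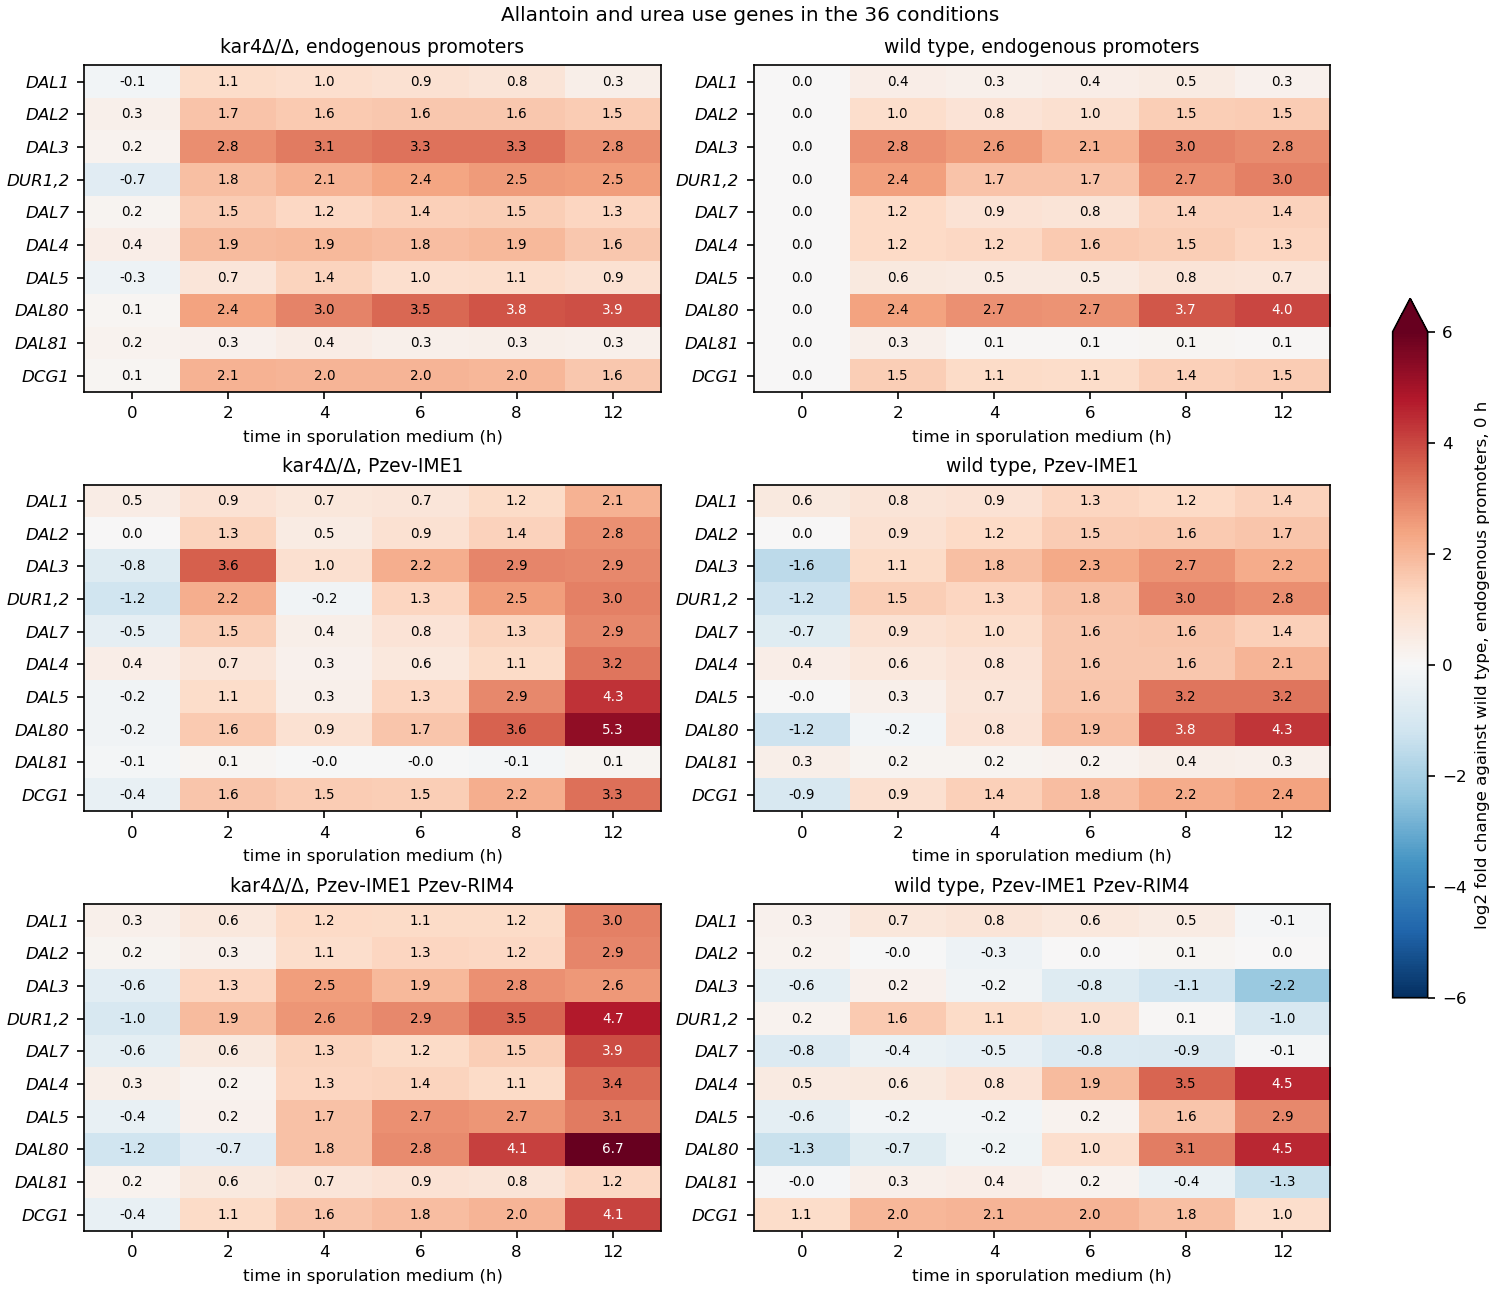
Log2 fold changes of the 10 genes (rows), with wild type, endogenous promoters, 0 h as zero, by time in h (columns), *kar4*Δ/Δ on the left and wild type on the right, for the 3 promoter backgrounds; each cell is 1 value combined over 2 replicates. Wild type with both Pzev promoters is the panel in which *DAL4*, *DAL5* and *DAL80* reach 4.50, 2.88 and 4.51 at 12 h while *DAL3* is at -2.25.

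With endogenous promoters, *kar4*Δ/Δ stood slightly above wild type in mid course. All 10 genes were above 0 at 4 h and at 6 h, with medians of 0.61 and 0.65, against medians over all genes of -0.02 and -0.01. At least 2-fold higher in *kar4*Δ/Δ was 1 of 10 at 6 h (*DAL3*, 1.16), where 1.89% of all genes were, and none at 2, 4, 8 or 12 h. Those counts depended on the scaling of the columns: with quantile normalization they were 7 of 10 at 6 h and 8 of 10 at 4 h. The interquartile range over all genes at 6 h was narrow, 0.56 in *kar4*Δ/Δ and 0.59 in wild type. Quantile normalization widens it for all genes, so the share of 1.89% does not apply to the rescaled counts. At 12 h the median difference was 0.04.

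With Pzev-*IME1*, the genes again stood higher late in the course. The 12 h value was at least 2-fold above the 0 h value for 9 of 10 in *kar4*Δ/Δ, where 19.2% of all genes were, and 8 of 10 in wild type, where 25.2% were. In *kar4*Δ/Δ, 9 of 10 genes had a 4 h value below both the 2 h and the 6 h value (all but *DCG1*), as did 35.9% of all genes. In wild type 1 of 10 did (*DUR1,2*), as did 26.1% of all genes. In *kar4*Δ/Δ, 9 of 10 were higher at 12 h than at 2 h, as were 54.9% of all genes.

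*DAL3*, the exception at 12 h, had the largest drop between 2 and 4 h, with -0.78, 3.57, 0.97, 2.18, 2.93 and 2.90 in *kar4*Δ/Δ at the 6 times and -1.57, 1.13, 1.79, 2.28, 2.72 and 2.22 in wild type. *DUR1,2* had -1.19, 2.16, -0.22, 1.28, 2.51 and 3.03 in *kar4*Δ/Δ and -1.23, 1.46, 1.28, 1.78, 2.97 and 2.77 in wild type. *DAL2* had 0.03, 1.34, 0.51, 0.90, 1.39 and 2.76 in *kar4*Δ/Δ and 0.04, 0.89, 1.22, 1.54, 1.56 and 1.67 in wild type. In each of these 3 genes the *kar4*Δ/Δ value at 4 h was below both its 2 h value and its 6 h value, and the wild type showed no low of that size. *DAL7* had -0.53, 1.48, 0.37, 0.80, 1.34 and 2.89 in *kar4*Δ/Δ and -0.74, 0.90, 1.05, 1.60, 1.65 and 1.43 in wild type. *DAL1* had 0.46, 0.86, 0.67, 0.71, 1.16 and 2.07 in *kar4*Δ/Δ and 0.59, 0.78, 0.88, 1.30, 1.18 and 1.39 in wild type. For both genes *kar4*Δ/Δ was the lower genotype at 4, 6 and 8 h and the higher at 12 h.

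The transporter genes ended higher in *kar4*Δ/Δ as well. *DAL4* had 0.39, 0.71, 0.26, 0.64, 1.13 and 3.20 in *kar4*Δ/Δ and 0.38, 0.61, 0.84, 1.63, 1.63 and 2.05 in wild type. *DAL5* had -0.19, 1.10, 0.33, 1.30, 2.89 and 4.34 in *kar4*Δ/Δ and -0.03, 0.32, 0.71, 1.64, 3.21 and 3.19 in wild type, a late climb that the endogenous promoters did not give in either genotype. *DAL80* had -0.21, 1.56, 0.92, 1.65, 3.56 and 5.33 in *kar4*Δ/Δ and -1.24, -0.18, 0.83, 1.87, 3.82 and 4.27 in wild type, which places the repressor gene above the other 9 at 12 h in both. *DAL81* had -0.11, 0.13, -0.05, -0.02, -0.10 and 0.15 in *kar4*Δ/Δ and 0.33, 0.16, 0.16, 0.20, 0.36 and 0.29 in wild type, again within 0.4 of zero. *DCG1* had -0.43, 1.64, 1.51, 1.46, 2.19 and 3.28 in *kar4*Δ/Δ and -0.95, 0.95, 1.42, 1.84, 2.21 and 2.42 in wild type.

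Set against wild type at the same time, *kar4*Δ/Δ with Pzev-*IME1* had 2 of 10 genes at least 2-fold higher at 2 h, *DAL3* at 2.44 and *DAL80* at 1.74, where 7.37% of all genes were. *DAL80* already stood 1.03 above wild type at 0 h. At 4 h 1 of 10 was at least 2-fold lower, *DUR1,2* at -1.50, where 5.51% of all genes were, and 8 of 10 were below 0 with a median of -0.48. With quantile normalization or a common interquartile range, 2 of 10 were at least 2-fold lower at 4 h. At 6 h all 10 were below 0, with a median of -0.44 and none 2-fold apart. Signs were not counted over all genes, so these sign counts are not read as a shift particular to the set. At 12 h the direction turned: 5 of 10 were at least 2-fold higher in *kar4*Δ/Δ, where 2.31% of all genes were, namely *DAL7* (1.46), *DAL5* (1.15), *DAL4* (1.14), *DAL2* (1.09) and *DAL80* (1.05), and the median was 0.95. None of these 5 was 4-fold apart. At that time *NDT80*, whose product takes cells out of meiotic prophase, stood at 0.23 in *kar4*Δ/Δ and 2.12 in wild type. Its part in the members' differences was not tested.

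The same 4 h column of *kar4*Δ/Δ with Pzev-*IME1* was also low against *kar4*Δ/Δ with endogenous promoters, which is not a separate observation of the low. In this comparison 6 of 10 genes were at least 2-fold lower with Pzev-*IME1*, where 8.54% of all genes were. All 10 were below 0, from *DUR1,2* at -2.30 to *DAL1* at -0.34, and signs were not counted over all genes. At 6 h every member but *DAL5* was also below 0. *DAL80* (-1.81), *DAL4* (-1.21), *DAL3* (-1.09) and *DUR1,2* (-1.09) were then at least 2-fold lower, where 6.77% of all genes were. At 12 h the same comparison ran the other way, with 7 of 10 at least 2-fold higher with Pzev-*IME1*, where 7.47% of all genes were. *DAL5* led at 3.42, and the count was 2 of 10 with quantile normalization. In wild type at 12 h only *DAL5* (2.47) and *DAL1* (1.14) were at least 2-fold higher with Pzev-*IME1*, where 10.8% of all genes were. *DAL3* (-0.60) and *DUR1,2* (-0.25) were below 0 there. The values of the *kar4*Δ/Δ Pzev-*IME1* 4 h column carried 7 decimals at the median, as did the 0 h column of the *kar4*Δ/Δ strain with both promoters, against 14 or 15 in the other columns apart from the all-zero reference, and the part of this in the 4 h values was not tested.

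**Figure D2:**
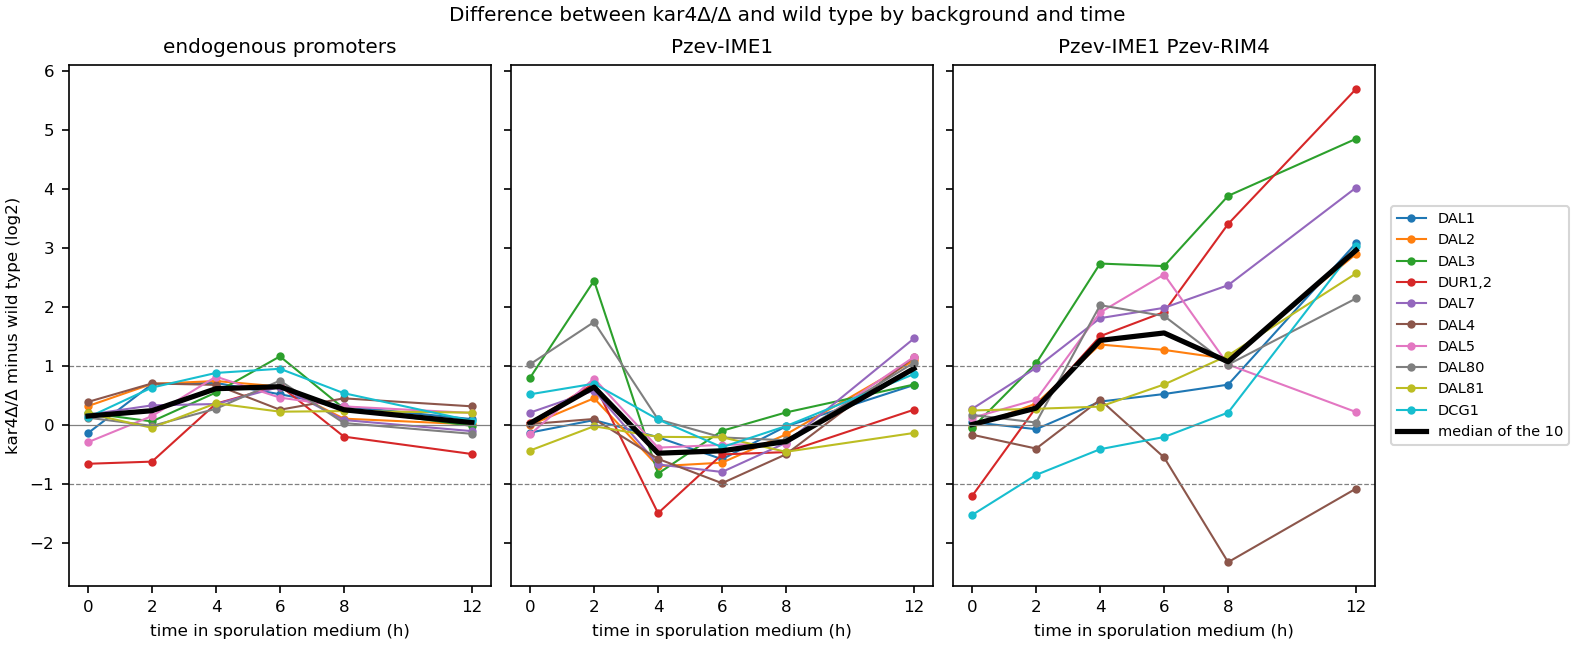
Log2 value of *kar4*Δ/Δ minus that of wild type for each of the 10 genes against time in h, by promoter background, with the median of the 10 in black and dashed lines at 2-fold. The median stays at or below 0.65 with endogenous promoters, turns from 0.64 at 2 h to -0.48 at 4 h and 0.95 at 12 h with Pzev-*IME1*, and reaches 2.96 at 12 h with both Pzev promoters.

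With both Pzev promoters the 2 genotypes parted. In *kar4*Δ/Δ all 10 genes stood at least 2-fold above their 0 h value at 12 h, where 20.6% of all genes were. In wild type 3 of 10 were at least 2-fold higher, where 26.6% of all genes were, and 3 of 10 were at least 2-fold lower, where 21.3% were. These wild type counts are near the shares of all genes and are not read as a result about the set. The wild type genes that were higher were *DAL4*, *DAL5* and *DAL80*, and those that were lower were *DAL3*, *DUR1,2* and *DAL81*. The count of lower genes was 1 with quantile normalization or a common interquartile range.

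*DAL3* had -0.64, 1.29, 2.52, 1.93, 2.75 and 2.60 in *kar4*Δ/Δ at the 6 times, against -0.59, 0.24, -0.21, -0.77, -1.13 and -2.25 in wild type. *DUR1,2* had -0.98, 1.89, 2.64, 2.87, 3.49 and 4.74 in *kar4*Δ/Δ, against 0.23, 1.59, 1.14, 0.95, 0.08 and -0.96 in wild type. For both, *kar4*Δ/Δ was above wild type at every time from 2 h on, and the gap at 12 h was 4.85 for *DAL3* and 5.70 for *DUR1,2*. *DAL1* had 0.31, 0.61, 1.19, 1.14, 1.16 and 3.02 in *kar4*Δ/Δ, against 0.27, 0.69, 0.79, 0.62, 0.48 and -0.06 in wild type. *DAL2* had 0.17, 0.32, 1.06, 1.28, 1.22 and 2.94 in *kar4*Δ/Δ, against 0.20, -0.04, -0.30, 0.01, 0.10 and 0.04 in wild type. *DAL2* in wild type thus stayed within 0.3 of zero, and in *kar4*Δ/Δ most of its height was added between 8 and 12 h. *DAL7* had -0.57, 0.56, 1.34, 1.17, 1.49 and 3.92 in *kar4*Δ/Δ, against -0.84, -0.40, -0.47, -0.81, -0.87 and -0.10 in wild type.

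*DAL4* went the other way, with 0.35, 0.20, 1.27, 1.35, 1.14 and 3.42 in *kar4*Δ/Δ, against 0.52, 0.61, 0.84, 1.91, 3.47 and 4.50 in wild type. It was the one member lower in *kar4*Δ/Δ at 8 and 12 h, by -2.33 and -1.08, and the direction at 12 h was not stable: it was 0.74 with quantile normalization and 0.39 with columns scaled to a common interquartile range. *DAL5* had -0.45, 0.25, 1.74, 2.75, 2.66 and 3.10 in *kar4*Δ/Δ, against -0.57, -0.18, -0.16, 0.20, 1.64 and 2.88 in wild type, so that *kar4*Δ/Δ was ahead by more than 2-fold from 4 to 8 h and by 0.22 at 12 h. *DAL80* had -1.17, -0.69, 1.78, 2.84, 4.08 and 6.66 in *kar4*Δ/Δ, against -1.34, -0.73, -0.25, 0.998, 3.06 and 4.51 in wild type, the highest value of any member in any of the 36 conditions being that of *kar4*Δ/Δ at 12 h. *DAL81* had 0.19, 0.59, 0.72, 0.89, 0.79 and 1.24 in *kar4*Δ/Δ, against -0.05, 0.32, 0.41, 0.20, -0.39 and -1.33 in wild type. The activator gene, flat in the other backgrounds, ended higher in *kar4*Δ/Δ by 2.57. *DCG1* had -0.45, 1.14, 1.64, 1.84, 2.03 and 4.06 in *kar4*Δ/Δ, against 1.08, 1.98, 2.06, 2.04, 1.83 and 1.04 in wild type.

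**Figure D3:**
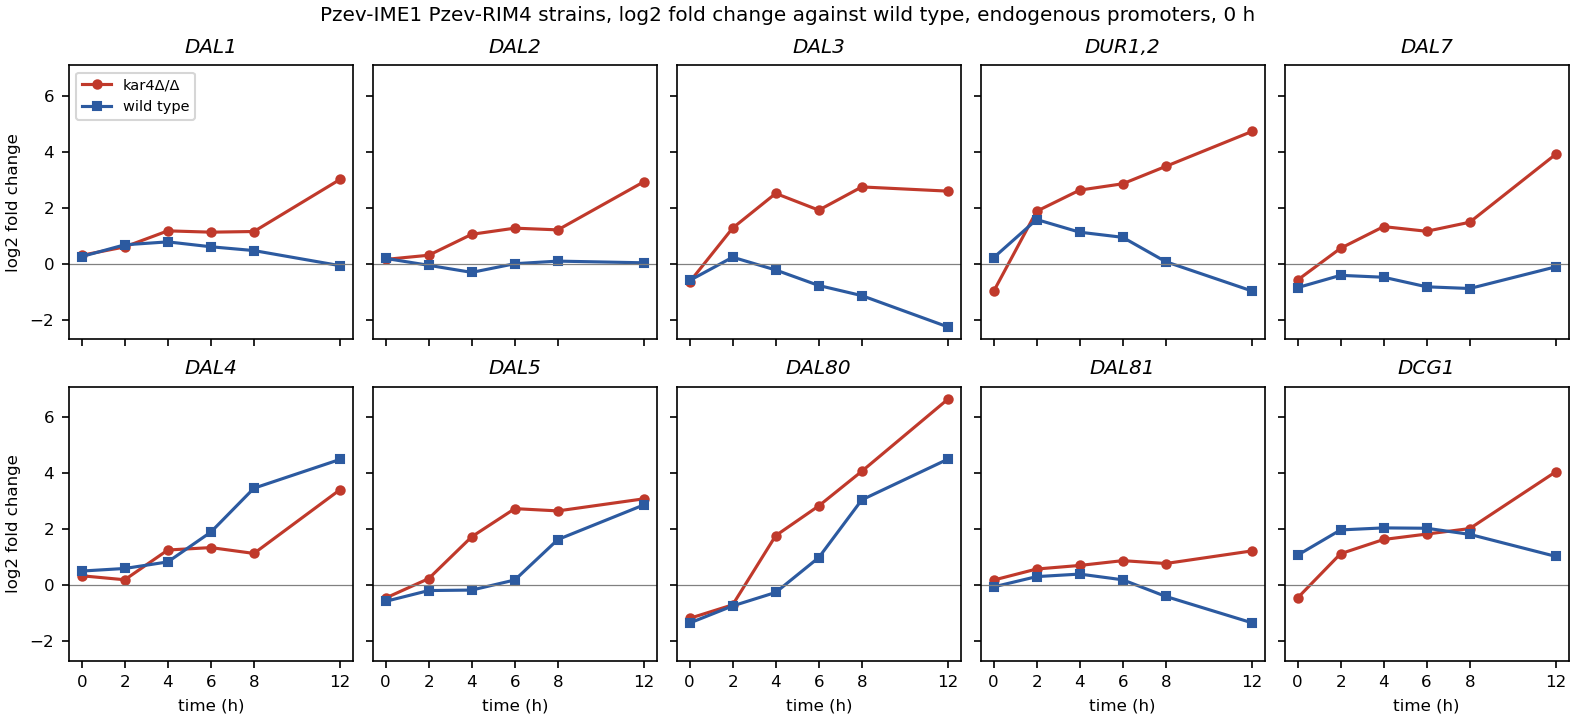
Log2 fold change of each gene, with wild type, endogenous promoters, 0 h as zero, by time in h, in the strains with both Pzev promoters (*kar4*Δ/Δ red circles, wild type blue squares; 1 value per time, combined over 2 replicates). *DUR1,2* ends at 4.74 in *kar4*Δ/Δ and at -0.96 in wild type, while *DAL4* ends at 3.42 in *kar4*Δ/Δ and at 4.50 in wild type.

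Set against wild type at the same time, at least 2-fold higher in *kar4*Δ/Δ was 1 of 10 at 2 h (*DAL3*, 1.04), where 5.85% of all genes were, 6 of 10 at 4 h, where 7.28% were, and 6 of 10 at 6 h, where 10.7% were. It was 7 of 10 at 8 h, where 12.8% of all genes were, and 8 of 10 at 12 h, where 17.9% were. *DAL4* alone was at least 2-fold lower at 8 h, where 17.6% of all genes were, and at 12 h, where 25.2% were. With quantile normalization or a common interquartile range no member was. The median of the 10 was 1.43 at 4 h, 1.56 at 6 h, 1.07 at 8 h and 2.96 at 12 h, against -0.01 over all genes at 12 h. At 0 h *DCG1* and *DUR1,2* were lower in *kar4*Δ/Δ, by -1.53 and -1.21. *IME1* and *RIM4* differed there too: *IME1* stood at 1.41 in *kar4*Δ/Δ and 3.03 in wild type, and *RIM4* at 0.23 in *kar4*Δ/Δ and 3.21 in wild type. Both promoter-driven genes were thus already higher in the wild type 0 h sample, which is also the 0 h value in the wild type differences over time in this background, and their part in these was not tested.

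The spread of all genes differed between these columns. In wild type with both Pzev promoters at 12 h the interquartile range over all genes was 2.12, against 1.33 in *kar4*Δ/Δ. *NDT80*, the gene of the transcription factor that takes cells out of meiotic prophase, stood at 1.27 in *kar4*Δ/Δ and at 6.04 in wild type at 12 h. Its difference ran from -5.08 to -0.50 between 2 and 12 h, beside those of the members, and its part in them was not tested.

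Adding Pzev-*RIM4* to Pzev-*IME1*, compared at 12 h, went with higher values of 8 of 10 genes in *kar4*Δ/Δ. In wild type it went with lower values of 8 of 10, and signs were not counted over all genes. By the same 12 h difference, the *RIM4* transcript itself was at 2.74 in *kar4*Δ/Δ and at -0.37 in wild type. *IME1* was at 0.12 in *kar4*Δ/Δ and -2.08 in wild type, and *NDT80* at 1.05 in *kar4*Δ/Δ and 3.92 in wild type. The lower wild type values thus did not go with more *RIM4* transcript at that time. The part of *RIM4*, *IME1* and *NDT80* levels in the members' differences was not tested. In *kar4*Δ/Δ, both Pzev promoters gave a value at least 2-fold above that of Pzev-*IME1* for 4 of 10 genes, where 6.23% of all genes were: *DUR1,2* (1.70), *DAL80* (1.33), *DAL81* (1.09) and *DAL7* (1.03). None was with quantile normalization. *DAL5* was lower, at -1.24. In wild type, 7 of 10 were at least 2-fold lower, where 20.3% of all genes were, led by *DAL3* at -4.47 and *DUR1,2* at -3.74, and *DAL4* was higher at 2.45, where 24% of all genes were. The wild type count of 1 higher gene became 0 with either rescaling of the columns. The direction in *kar4*Δ/Δ was not the same at all times: at 2 h every member but *DAL81* was lower with both Pzev promoters. At that time *DAL3* (-2.28), *DAL80* (-2.25) and *DAL2* (-1.03) were at least 2-fold lower, where 11.2% of all genes were.

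A second step came late in *kar4*Δ/Δ when both Pzev promoters were present. At 12 h, 7 of 10 were at least 2-fold higher than at 8 h, where 5.03% of all genes were, with a median of 1.79. *DAL80* (2.58), *DAL7* (2.43), *DAL4* (2.28) and *DCG1* (2.03) were 4-fold apart, while *DAL3* was at -0.15. In *kar4*Δ/Δ with Pzev-*IME1* alone, every member but *DAL3* was higher at 12 h than at 8 h, and signs were not counted over all genes. There *DAL4* went from 1.13 to 3.20 and *DAL80* from 3.56 to 5.33. *DAL7*, *DAL5*, *DAL2* and *DCG1* were at least 2-fold higher as well, where 1.79% of all genes were.

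Neighbours on chromosome IX did not all behave alike. *DAL4* and *DAL2* are neighbours, and in wild type with both Pzev promoters the difference between 12 h and 0 h was 3.99 for *DAL4* and -0.16 for *DAL2*, with -0.33 for *DAL1* on the other side. In *kar4*Δ/Δ the 6 adjacent genes were between 2.71 (*DAL1*) and 4.51 (*DCG1*). The first annotated gene beyond *DAL3*, *MGA2*, was at 1.09 in *kar4*Δ/Δ and -0.73 in wild type. The first beyond *DAL1*, *YVH1*, was at 0.52 in *kar4*Δ/Δ and -1.53 in wild type. Of the genes outside the 6 in the plot of gene order, *LYS1* had the highest value in *kar4*Δ/Δ, 1.54, with 1.35 in wild type.

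**Figure D4:**
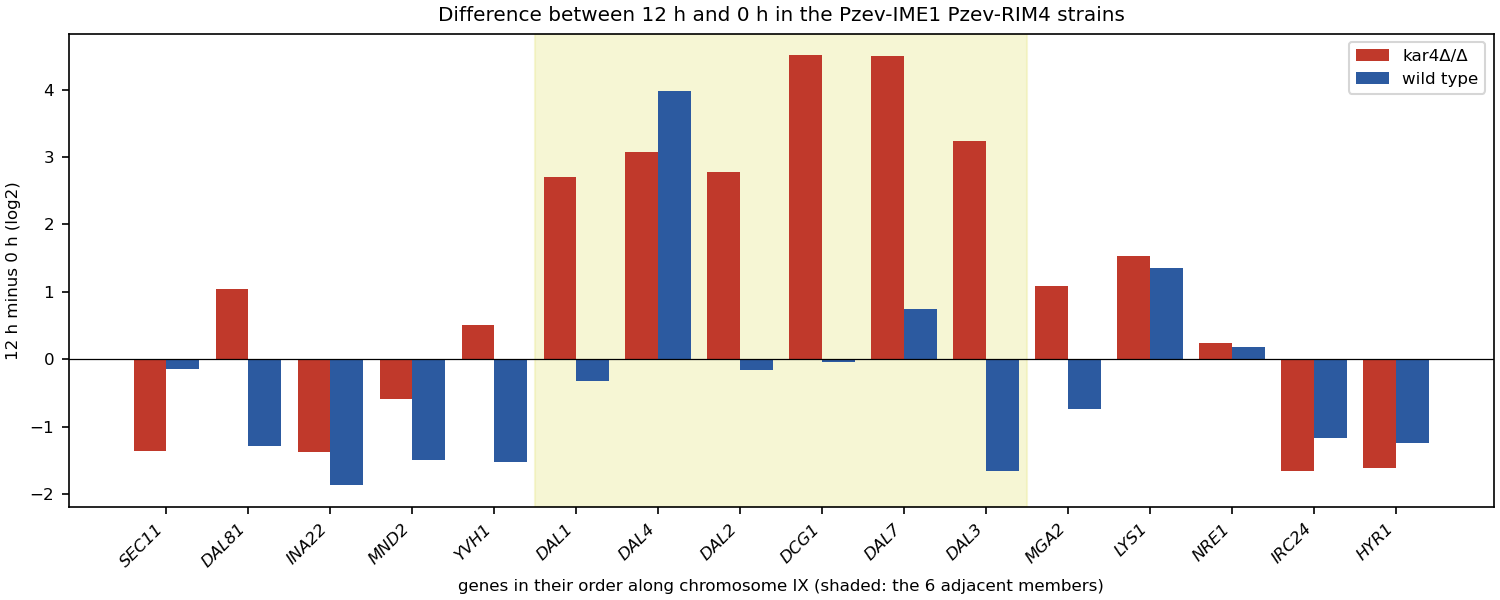
Difference between 12 h and 0 h (log2) of the genes around the 6 adjacent members, in chromosome order, in the strains with both Pzev promoters; red bars are *kar4*Δ/Δ and blue bars wild type, each 1 value, and the shading marks the 6 members. Within the shading *DAL4* is the gene whose wild type bar, 3.99, exceeds its *kar4*Δ/Δ bar, 3.07.

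The 10 genes did not all follow 1 course. Across the 36 conditions, which share strains and the zero of the scale, the 45 pairs of members had a median Pearson r of 0.67, and 8 pairs had an r of at least 0.8. *DAL2* and *DAL7* were the most alike (r = 0.96), and *DAL4* and *DAL81* the least (r = -0.23). Against the median of the 10, which includes each gene itself, *DAL2* had an r of 0.96, *DAL7* 0.95 and *DUR1,2* 0.90, while *DAL81* had 0.47 and *DAL4* 0.46.

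Among the genes outside the set, those most like the median of the 10 over the 36 conditions were led by YIR030W-A (r = 0.94), which the RefSeq R64 annotation does not list. After it came *CAN1*, the arginine permease gene (0.93), *UGA4*, for the permease of γ-aminobutyrate (0.92), *MEP2*, for an ammonium permease (0.91), *GAT1* (0.89), *DUR3*, the urea permease gene (0.89), and *GAP1*, the general amino acid permease gene (0.89). YFL021C-A (0.86), YKR033C (0.83) and *AMD2* (0.82) completed the 10 highest. An r of at least 0.8 was reached by 14 of 6486 genes. That count includes YIR030W-A, YFL021C-A and YKR033C, none of which the R64 annotation lists. Their identifiers stand next to those of *DCG1* (YIR030C), *GAT1* (YFL021W) and *DAL80* (YKR034W). Whether they share reads with these genes was not tested, so they are not counted as independent likenesses.

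The partners of the pathway, 6 genes that act with the members, were read at 12 h with both Pzev promoters, where the members' median difference was largest. *DUR3* stood at 3.86 in *kar4*Δ/Δ and -0.18 in wild type, a difference of 4.04. The GATA activator gene *GAT1* was at 3.94 in *kar4*Δ/Δ and 1.15 in wild type, and *GLN3*, for the other activator, at 0.85 in *kar4*Δ/Δ and 0.26 in wild type. *GZF3*, for the repressor related to Dal80p, was at 2.17 in *kar4*Δ/Δ and -1.23 in wild type. An activator gene, *GAT1*, and a repressor gene, *GZF3*, were thus both at least 2-fold higher in *kar4*Δ/Δ, while *GLN3* was not. *DAL82* was at 0.44 in *kar4*Δ/Δ and -0.66 in wild type, and *URE2*, whose product holds Gln3p in the cytoplasm, was at -0.98 in *kar4*Δ/Δ and 0.72 in wild type. Of the 6, 4 were at least 2-fold higher in *kar4*Δ/Δ and 1, *URE2*, lower, against the 17.9% and 25.2% of all genes given above.

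Of 20 other nitrogen use genes, 16 were at least 2-fold higher in *kar4*Δ/Δ in the same comparison and 2 lower, with a median of 1.96. The 5 with the largest differences were all permease genes: *MEP2* (8.28), *GAP1* (7.25), *CAN1* (4.17), *DIP5*, for an acidic amino acid permease (4.14), and *UGA4* (4.09). *GLN1*, the glutamine synthetase gene, was at 0.34 in *kar4*Δ/Δ and 3.65 in wild type, and *GDH2*, for the glutamate dehydrogenase that releases ammonia, at -1.97 in *kar4*Δ/Δ and 0.80 in wild type. With Pzev-*IME1* at 12 h, where 5 of the 10 members were at least 2-fold higher in *kar4*Δ/Δ, 1 of these 20 was higher and 1 lower, where 2.31% of all genes were higher and 5.37% lower. *DAL7* has a close relative in *MLS1*, the malate synthase gene of the glyoxylate cycle, and reads may be shared between them. *MLS1* was at -4.97 in *kar4*Δ/Δ and -3.59 in wild type at 12 h with both Pzev promoters, a difference of -1.38, against 4.02 for *DAL7*.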

How the data were processed

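RNA-seq of 72 samples, 2 biological replicates of each of 36 conditions, was processed by the authors with BWA-MEM (sacCer3), htseq-count and DESeq2; versions are not given in the sources used here. The deposited values are the authors' log2 fold changes of each condition over wild type, endogenous promoters, 0 h, with replicates combined, so depth is unknown and no test could be made. The columns are the authors' own comparisons with that reference; they hold the only values used here, and differences between conditions were taken by subtraction. The 16 columns without a name and 164 genes lacking a value in any column were not used, and 4 emptied lines are not analysed here.

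Sizes of at least 2-fold were counted over the 10 genes and over 6496 genes. The members, gene lists and tests were chosen with earlier results of these data known. Genes named are the 10 members, 6 partners, up to 5 nitrogen use genes with the largest difference where the members' median difference was largest, the neighbours on chromosome IX, the 10 genes most like the members' median, and *KAR4*, *IME1*, *RIM4* and *NDT80* as checks. *GLN1*, *GDH2* and *MLS1* were named after their values were seen. Upstream windows and coordinates come from the RefSeq R64 assembly, in which 5986 of 6660 identifiers were found as locus tags; the windows avoid the last 100 bases before the start codon. Alternatives were quantile normalization, median centring, scaling to a common interquartile range, a 4-fold size, percentiles, other genes kept and GATAA in place of GATAAG. The counting step was tested on simulated data. Scripts ran in Python 3.11.15 with pandas 2.3.3 and numpy 2.4.6, and figures were drawn in matplotlib 3.10.9.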

Additional observations from a re-analysis of the deposited data

Results flagged for a closer look

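In 5 cases a member differed by at least 2-fold in 1 direction in 1 group and by at least 2-fold in the other direction in the other; these are differences of single combined values, and none was tested. With both Pzev promoters, 12 h minus 0 h was above 0 in *kar4*Δ/Δ and below 0 in wild type for *DUR1,2*, 6.90 apart, for *DAL3*, 4.90 apart, and for *DAL81*, 2.32 apart. Without the size limit, 6 of the 10 members had opposite signs there. Opposite signs were not counted over all genes, with or without the size limit, so they are not read as particular to the members. For *DUR1,2*, *kar4*Δ/Δ minus wild type at 4 h was above 0 with both Pzev promoters and below 0 with Pzev-*IME1*, 3.001 apart. That of *DAL4* at 12 h was below 0 with both Pzev promoters and above 0 with Pzev-*IME1*, -2.22 apart, and the *DAL4* sign with both promoters depended on the scaling of the columns.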

How the results depend on the processing

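Quantile normalization, which gives all columns 1 distribution, left 16 of the 24 counts within 1.5 times, as did scaling to a common interquartile range. Between *kar4*Δ/Δ and wild type, the members at least 2-fold lower with both Pzev promoters became 0 at 8 h and 0 at 12 h under both rescalings, those lower with Pzev-*IME1* at 4 h became 2 under both, and those higher with endogenous promoters at 6 h became 7 with quantile normalization and 6 with interquartile scaling. In wild type with both Pzev promoters, those lower at 12 h than at 0 h became 1 under both. At 12 h, both rescalings gave 0 higher for both Pzev promoters against Pzev-*IME1* in each genotype, and 2 higher for Pzev-*IME1* against endogenous promoters in *kar4*Δ/Δ. The *DAL4* difference at 12 h with both Pzev promoters reversed to 0.74 with quantile normalization and 0.39 with interquartile scaling. Centring the columns and keeping the genes with a value in the columns compared left all 24 counts within 1.5 times. Shares of all genes given in the results are for the columns as deposited and do not apply to the rescaled counts.

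A 4-fold size gave, for *kar4*Δ/Δ against wild type with both Pzev promoters, 0, 2, 2 and 3 members higher at 2, 4, 6 and 8 h and 0 lower at 12 h. It gave 1 higher at 2 h, 0 lower at 4 h and 0 higher at 12 h with Pzev-*IME1*, and 0 higher at 6 h with endogenous promoters. For 12 h against 0 h with endogenous promoters it gave 3 higher in *kar4*Δ/Δ (also 3 with the wild type 0 h sample as zero, an alternative chosen after seeing the data) and 3 in wild type, and 0 lower in wild type with both Pzev promoters. For both Pzev promoters against Pzev-*IME1* at 12 h it gave 2 lower in wild type and 0 higher in *kar4*Δ/Δ. For *kar4*Δ/Δ it gave 4 higher at 12 h against 8 h with both Pzev promoters, and, for Pzev-*IME1* against endogenous promoters, 3 lower at 4 h and 1 higher at 12 h. Where the wild type 0 h sample was the zero, 38 of 6496 genes passed the 4-fold size, beside the 3 members. The other 4-fold counts are given without a share of all genes, so whether they exceed it was not tested. The 2-fold shares do not apply to them.

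GATAA was found in 9 of 10 windows, against 60.1% of all genes. In windows chosen after seeing the data, from 500 to 51 and from 600 to 1 bases before the start codon, GATAAG was found in 10 of 10, against 20.4% and 26.8% of all genes. No paired analysis was possible because the columns hold 1 value per condition with the replicates combined, and leaving out a replicate was not run for the same reason. The absence of counts and errors limits every value: none can be set against replicate spread.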

Other observations

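As a percentile among all genes of the same column, with endogenous promoters at 12 h *DAL80* stood highest of the 10, at 99.9 in *kar4*Δ/Δ and 99.9 in wild type, and *DAL81* lowest, at 76.4 in *kar4*Δ/Δ and 58.9 in wild type, with *DAL1* next at 79.5 in *kar4*Δ/Δ and 71.5 in wild type. With both Pzev promoters at 12 h, *DAL3* stood at the 96.7th percentile in *kar4*Δ/Δ and the 6.45th in wild type, and *DUR1,2* at the 99.2nd in *kar4*Δ/Δ and the 25.2nd in wild type. *DAL4* stood at 98.4 in *kar4*Δ/Δ and 96.5 in wild type, so that it ranked slightly higher in *kar4*Δ/Δ although its log2 fold change was lower there.

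YKR033C, which the R64 annotation used here does not list, was at 6.95 in *kar4*Δ/Δ and 3.94 in wild type at 12 h with both Pzev promoters, beside *DAL80* at 6.66 in *kar4*Δ/Δ and 4.51 in wild type. YIR030W-A was at 4.05 in *kar4*Δ/Δ and 0.62 in wild type, beside *DCG1* at 4.06 in *kar4*Δ/Δ and 1.04 in wild type. Whether the counting used strand is not given in the sources used here.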
